A study of Mus musculus with 40 samples.

Results

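The loci of 9 genes of the Hippo pathway were followed through a reporter screen for enhancers: Tead1, Tead2, Tead3, Tead4, Yap1, Wwtr1, Lats1, Lats2 and Amotl2. A fragment was counted at a locus when its centre lay in the RefSeq gene body on mm10 or within 25 kb of it. There were 819 fragment entries at the 9 loci, out of 458486 in all 40 libraries. These were 630 distinct fragments out of 354627. Fragments that overlapped were merged into regions, of which 90 lay at the 9 loci and 75060 in the whole data set. Counts of a region take in all its fragments, including any whose centre lies beyond the 25 kb.

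In the screen, open-chromatin fragments cut by the Tn5 transposase were placed before an Hsp68 minimal promoter and a Venus-YFP reporter, and the construct was integrated into the HPRT locus of HM-1 cells, a mouse embryonic stem cell line of the 129/ola strain. Cells were taken at 5 stages of blood cell formation in serum culture, sorted by YFP into 4 gates, and the inserted fragments of each gate were sequenced, with 2 replicates of each stage and gate. The stages were ES (undifferentiated cells), HB (FLK1+ hemangioblast-like cells from embryoid bodies), HE1 and HE2 (hemogenic endothelium, KIT+ TIE2+, CD41- and CD41+) and HP (progenitors, KIT+ TIE2- CD41+). The Negative gate was set on a line that held the minimal promoter with no fragment, and Low, Medium and High lay above it. All groups share the HM-1 background, the repaired HPRT locus and the mixed plasmid libraries of the 5 stages. The methods describe 1 transfection of many cells per experiment, and whether a replicate number is 1 such experiment is not stated. Below, a sort is 1 stage of 1 replicate, a positive fragment is one listed in its Low, Medium or High gate (or in several), and a negative fragment is one listed in its Negative gate. A fragment found in both is counted in both.

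TEAD1 to TEAD4 are transcription factors that bind DNA but activate poorly alone. They recruit the co-activators YAP1 and TAZ (the product of Wwtr1), which enter the nucleus when the kinases LATS1 and LATS2 do not phosphorylate them. AMOTL2, a protein of the angiomotin family found at cell junctions, binds YAP1 and holds it outside the nucleus, and its gene is itself known as a target of YAP1 and TEAD. In endothelial cells the pathway responds to cell contact and flow, and TEAD factors often bind beside AP-1 factors.

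The sequences that the counts below rest on are shown first, as the GRCm38 reference has them on the plus strand, in windows of 300 bases around the base that most positive fragments covered. The reference is C57BL/6J, so the 129/ola cells may differ at single bases. Capitals mark the letters searched on both strands for TEAD (GGAATGT or GGAATGC), AP-1 (TGAGTCA or TGACTCA), RUNX (TGTGGTT or TGTGGTC), PU.1 (GAGGAAGT) and the GATA factors (the letters AGATAAG). A match is a description of letters and not a bound site.
The Amotl2 intron region 4.5 kb from the start site, with the most positive fragments of the 90 regions, chr9:102722256-102722555: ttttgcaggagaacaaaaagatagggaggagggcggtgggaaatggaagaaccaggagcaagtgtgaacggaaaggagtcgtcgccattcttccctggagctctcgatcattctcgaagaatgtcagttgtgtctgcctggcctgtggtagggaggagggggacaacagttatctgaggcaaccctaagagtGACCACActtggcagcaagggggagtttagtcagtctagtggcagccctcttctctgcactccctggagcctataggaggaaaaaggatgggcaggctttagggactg
The Tead1 intron region at 144.4 kb had the most positive fragments of its locus, chr7:112823722-112824021: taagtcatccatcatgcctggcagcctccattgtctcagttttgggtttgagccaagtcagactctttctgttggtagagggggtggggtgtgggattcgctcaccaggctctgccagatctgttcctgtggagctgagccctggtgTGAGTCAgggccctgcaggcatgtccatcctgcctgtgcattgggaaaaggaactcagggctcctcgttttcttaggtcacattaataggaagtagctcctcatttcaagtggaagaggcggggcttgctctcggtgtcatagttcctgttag
The Tead1 intron region at 38.5 kb had no fragment at ES or HB, chr7:112717713-112718012: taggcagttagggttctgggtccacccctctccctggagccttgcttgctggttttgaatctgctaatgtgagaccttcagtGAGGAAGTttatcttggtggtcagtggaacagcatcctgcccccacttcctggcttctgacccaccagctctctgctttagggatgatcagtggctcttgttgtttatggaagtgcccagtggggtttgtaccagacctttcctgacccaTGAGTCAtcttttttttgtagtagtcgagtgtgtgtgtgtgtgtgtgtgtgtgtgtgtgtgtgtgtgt
The region 23.0 kb upstream of Tead1 had none at ES or HB either, chr7:112656162-112656461: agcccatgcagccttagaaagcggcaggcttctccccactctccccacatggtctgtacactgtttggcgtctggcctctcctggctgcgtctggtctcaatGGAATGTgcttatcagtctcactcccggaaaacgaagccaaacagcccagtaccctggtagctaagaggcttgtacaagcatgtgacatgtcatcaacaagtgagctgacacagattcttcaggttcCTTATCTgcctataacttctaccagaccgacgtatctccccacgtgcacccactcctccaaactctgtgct
The Tead1 intron region at 41.1 kb held TEAD and AP-1 letters whose first bases lie 20 bases apart, chr7:112720068-112720367: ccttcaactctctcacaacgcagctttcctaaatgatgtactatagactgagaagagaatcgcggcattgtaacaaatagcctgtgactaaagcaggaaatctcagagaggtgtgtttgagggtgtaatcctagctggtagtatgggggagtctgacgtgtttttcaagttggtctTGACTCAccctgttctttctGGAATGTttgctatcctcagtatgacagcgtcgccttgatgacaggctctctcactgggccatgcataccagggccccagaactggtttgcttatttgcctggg
The Wwtr1 intron region at 20.0 kb had the most positive fragments of its locus, chr3:57555664-57555963: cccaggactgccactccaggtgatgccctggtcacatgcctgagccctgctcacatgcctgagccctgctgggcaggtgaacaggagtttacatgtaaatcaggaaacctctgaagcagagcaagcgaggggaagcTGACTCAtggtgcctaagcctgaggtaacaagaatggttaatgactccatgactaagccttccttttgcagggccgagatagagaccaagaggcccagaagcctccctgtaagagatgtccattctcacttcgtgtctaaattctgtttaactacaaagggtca
A single fragment between genes in the Tead3 locus, nearest to Tulp1, was found in 11 libraries, chr17:28373955-28374056: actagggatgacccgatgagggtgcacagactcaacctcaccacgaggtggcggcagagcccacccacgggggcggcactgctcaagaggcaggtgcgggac
A fragment in a Yap1 intron was found in 6 libraries of both replicates, chr9:7959392-7959583: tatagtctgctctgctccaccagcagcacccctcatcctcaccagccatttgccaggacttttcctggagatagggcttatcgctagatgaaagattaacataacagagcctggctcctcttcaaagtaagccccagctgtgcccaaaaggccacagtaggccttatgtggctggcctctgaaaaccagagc

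The lists differed in depth, which bears on each comparison. Libraries held 4869 to 51146 fragments in replicate 1 and 654 to 31915 in replicate 2. A sort had 27717 to 101943 positive and 8426 to 41374 negative fragments in replicate 1, against 3471 to 34809 and 2727 to 14951 in replicate 2. Of the fragments at the 9 loci, 564 positive and 142 negative ones came from replicate 1, and 58 and 24 from replicate 2. No member fragment had its centre within 1500 bp of a curated start site, so all described here are distal. Their median length was 167 bp.

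The 9 loci together took a like share of positive and negative fragments. In replicate 1 they held 20.7 ± 1.42 of 10000 positive fragments and 18.3 ± 4.56 of 10000 negative ones (SD, n = 5 stages). In replicate 2 the values were 9.03 ± 2.48 and 10.0 ± 2.38 (SD, n = 5 stages). In replicate 1 the positive share ran from 18.9 at HE2 to 22.4 at ES and exceeded the negative share at 4 of 5 stages. At ES the positive share of 22.4 (95% Wilson interval 17.5 to 28.7, counting error only) lay below the negative share of 26.1 (17.9 to 37.9). The ranges of the 2 classes overlapped in each replicate, while the 2 replicates did not overlap, with every share of replicate 1 above every share of replicate 2. By gate, replicate 1 had 18.3 ± 4.56 at Negative, 25.5 ± 6.51 at Low, 19.9 ± 3.57 at Medium and 20.1 ± 1.96 at High (fragments per 10000, SD, n = 5). In replicate 2 the values were 10.0 ± 2.38 at Negative, 7.53 ± 6.03 at Low, 6.04 ± 4.79 at Medium and 16.7 ± 9.62 at High (SD, n = 5). They rest on 24, 36, 8 and 20 member fragments, too few to order the gates. The High library of HE2 had 2 of 654, and pooled over stages High was 14.0. In neither replicate did the shares rise step by step with YFP.

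**Figure D1:**
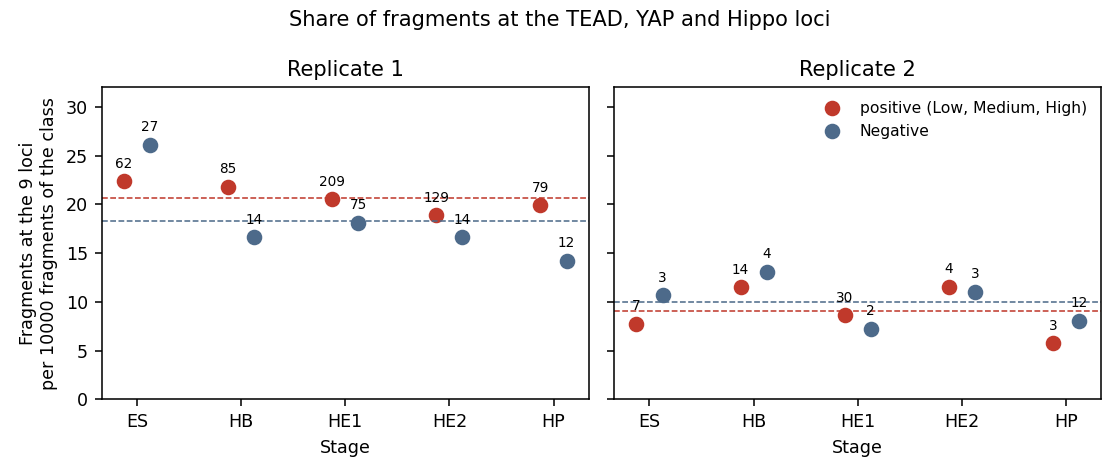
Fragments at the 9 loci per 10000 fragments of the same class (vertical axis) for each stage (horizontal axis), with positive fragments in red and Negative ones in blue. The numbers are fragment counts and the dashed lines are the means over 5 stages, 20.7 and 18.3 in replicate 1 and 9.03 and 10.0 in replicate 2.

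Among the loci, Amotl2 had the densest cover for its length, with 209.6 fragments per 100 kb. Tead3 had 178 and Tead1 107 per 100 kb. The median over 21883 protein-coding loci was 9.25 per 100 kb, and these 3 lay at its 97.1th, 95.8th and 90.4th percentile. Lats1 had 4.69 per 100 kb, at the 40.4th percentile. The remaining 5 loci lay between 24.7 (Wwtr1) and 69.5 (Tead4). These counts are summed over sorts and class, and neighbouring genes share the wide loci: the member's own start site was the nearest one for 383 of 630 distinct fragments, or 60.8%. By gene this share was 92.9% for Amotl2, 73.1% for Tead1, 71.8% for Tead4, 45.8% for Lats2, 36.4% for Wwtr1, 23.8% for Yap1, 21.4% for Tead3 and 0% for Tead2 and Lats1. Of the distinct fragments, 411 lay in introns, 178 between genes and 41 in exons of curated transcripts.

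**Figure D2:**
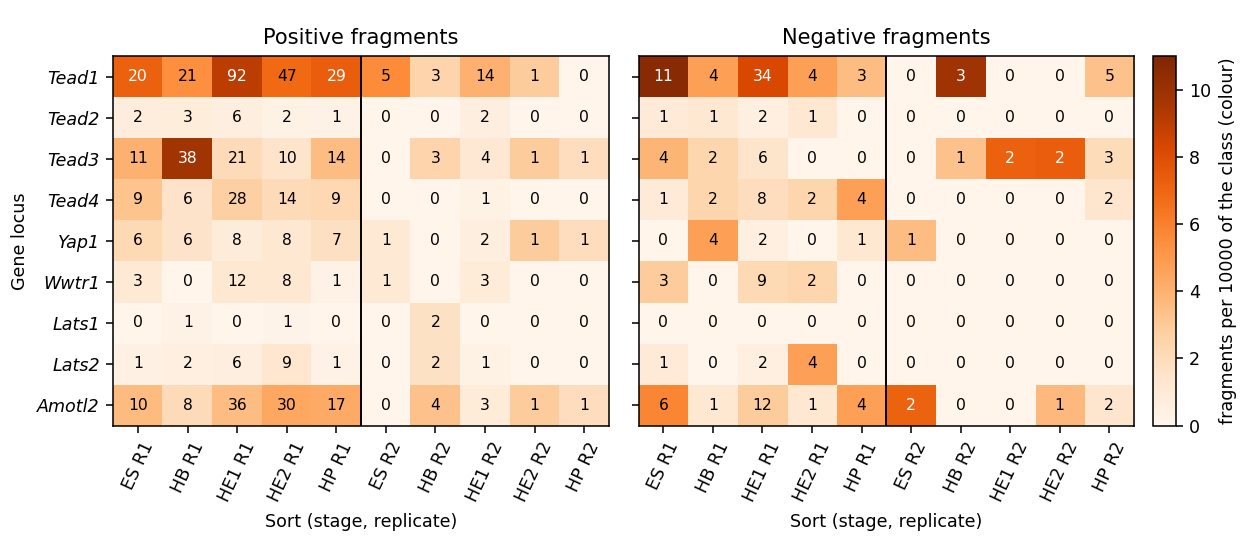
Fragments at each of the 9 loci (rows) in each of the 10 sorts (columns, R1 and R2 for the replicates), positive ones on the left and negative ones on the right. Numbers are counts and the colour is the count per 10000 fragments of that class, on 1 scale for both panels. Tead1 had 92 positive fragments at HE1 of replicate 1 and Lats1 at most 2 in any sort.

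Tead1 had the most fragments, 232 positive and 64 negative ones in 32 regions over 277.4 kb of chromosome 7. In replicate 1 its positive fragments numbered 20, 21, 92, 47 and 29 from ES to HP. These are 7.22, 5.39, 9.02, 6.87 and 7.31 per 10000 positive fragments, so HE1 was highest and HB lowest. In replicate 2 there were 5, 3, 14, 1 and 0, or 5.54, 2.46, 4.02, 2.88 and 0 per 10000, and there ES was highest. Negative fragments in replicate 1 numbered 11, 4, 34, 4 and 3 in the same stage order. The highest negative share was at ES, with 10.6 per 10000, above the 7.22 of the positive fragments of that sort.

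The Tead1 fragments lay in a few dense regions. The region chr7:112823458-112824076, in an intron 144.4 kb from the start site and nearer to that of Rassf10, had 44 positive and 11 negative fragments, all in replicate 1. Its positive ones were spread over all stages, with 6, 4, 16, 13 and 5 from ES to HP. The region chr7:112696857-112697680, at 17.9 kb, had 42 positive and 8 negative fragments, with positive counts of 0, 7, 19, 11 and 5 in that order and no negative one at ES either. Both hold the AP-1 letters.

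The regions at 38.5 kb and 23.0 kb upstream were absent from the first stages in both classes. At chr7:112717599-112718060 there were 16 positive fragments at HE1, 5 at HE2 and 9 at HP, and 5 negative ones at HE1, all of replicate 1. At chr7:112656119-112656572 there were 7, 5 and 5 positive ones and 3 negative ones at HE1. Neither had a fragment at ES or HB in any library. Both were named for their number of fragments, so their stage patterns are descriptions. In replicate 1 the 0 of 27717 positive fragments at ES allows up to 1.08 per 10000 (3 counts), and the 0 of 38953 at HB up to 0.770. The share of the 38.5 kb region was 1.57 per 10000 at HE1 (Wilson interval 0.966 to 2.55) and 2.27 at HP (1.19 to 4.31), but 0.731 at HE2 (0.312 to 1.71), within the limit for HB. The share of the 23.0 kb region ran from 0.687 at HE1 to 1.26 at HP, and its values at HE1 and HE2 lie under both limits, so a difference of those stages from ES and HB was not detectable at this depth. The methods describe a step that kept fragments in the open chromatin of their own stage. Its part in these zeros was not tested.

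The Tead1 region at 41.1 kb, chr7:112720068-112720830, had the lowest share of positive fragments among the tested Tead1 regions. It had 24 positive and 15 negative fragments, where 30.0 positive ones would match the split of each sort, a ratio of 0.799. In replicate 1 its positive fragments numbered 4, 5, 7, 4 and 0 from ES to HP, and its negative ones 8, 1, 6, 0 and 0. ES held the most negative fragments and fewer positive ones. It was the only member region with an unadjusted p under 0.05 in the Cochran-Mantel-Haenszel test over the 10 sorts, as 3.45% of all tested regions had, and its adjusted p was 1.00. This is also the region whose printed window holds both TGACTCA and GGAATGT. The region at 64.4 kb, chr7:112743523-112743976, had 19 positive and 3 negative fragments, with positive ones at all 5 stages of replicate 1 and at ES and HE1 of replicate 2. In replicate 1 it had 11 entries in High, 5 in Medium and 1 in Low, where all loci together had 100616, 118899 and 64626. The Tead1 region at 144.4 kb had 8, 21 and 15 in the same order. The gate split of single regions was not tested.

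**Figure D3:**
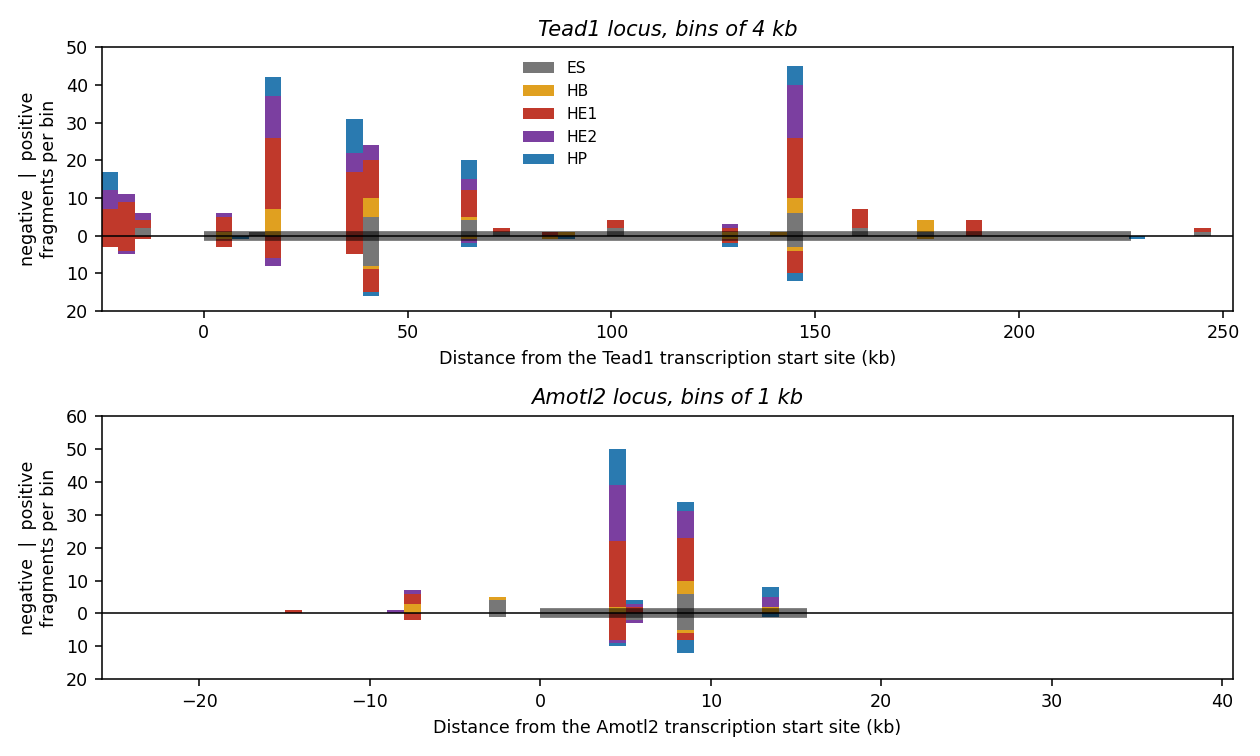
Fragments at the Tead1 and Amotl2 loci by distance of their centre from the gene's start site in kb (horizontal axis), positive ones above and negative ones below the line, with both replicates together and colours for the stage. The grey bar is the gene. Bins are 4 kb at Tead1 and 1 kb at Amotl2, and the tallest Amotl2 bin holds the 50 positive fragments of the region at 4.5 kb.

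Tead2, Tead3 and Tead4 encode the other TEAD factors. Tead2 had 16 positive and 5 negative fragments in 4 regions, and none had Tead2 as the nearest gene. Of the 18 distinct ones, 14 were nearest to Kash5 and 4 to Cd37. Its richest region, chr7:45198265-45198802 in a Kash5 intron, had 2, 3, 3, 2 and 1 positive fragments from ES to HP in replicate 1, and 5 negative ones.

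At the Tead3 locus, HB had the highest share in replicate 1, though HB was not tested against the other stages. In replicate 1 its positive fragments numbered 11, 38, 21, 10 and 14 from ES to HP. HB held 9.76 per 10000, the highest share that any of the 9 loci reached in a positive class, against 3.97 at ES. In replicate 2 there were 0, 3, 4, 1 and 1, too few to order the stages. Where the fragments lay differed within the locus. The 3 regions toward the Tulp1 start site, chr17:28368338-28368868, chr17:28373912-28374228 and chr17:28375485-28376177, had positive fragments at all 5 stages of replicate 1, with 28 at the most in the middle one. At HB of replicate 1 they had 6, 6 and 4 positive fragments in that order. The last of them crosses the end of the locus at chr17:28375805, so its counts take in fragments outside the locus. Past the end of the gene, chr17:28308756-28309297, nearest to Fance, had 0, 6, 7, 4 and 1 positive fragments from ES to HP of replicate 1. Inside the Tead3 gene, chr17:28340993-28341607 had 2, 7, 0, 0 and 4 positive fragments from ES to HP of replicate 1, and chr17:28344715-28345794 had 0, 5, 0, 0 and 0. In replicate 2 they had 1 each, at HB and HE1. These 2 regions and the one nearest to Fance were picked after their values had been seen.

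The region chr17:28332105-28332847, which overlaps a Tead3 exon at the far end of the gene, was the one with most replicate 2 entries among those named. Its positive fragments numbered 2, 4, 0, 0 and 0 from ES to HP in replicate 1 and 0, 1, 2, 1 and 1 in replicate 2. It had 5 positive and 7 negative fragments in replicate 2, against 6 and 2 in replicate 1. One 275 bp fragment, chr17:28332186-28332460, was in 13 libraries, all of replicate 2, at HB, HE1, HE2 and HP, and in the Negative gate of each. The 102 bp fragment chr17:28373955-28374056 printed above was in 11 libraries of replicate 1 and was in the Negative gate of ES and HE1. Both were counted as positive and as negative in the same sort, and such entries are not independent.

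Tead4 had 67 positive and 19 negative fragments. In replicate 1 the positive ones numbered 9, 6, 28, 14 and 9 from ES to HP, and replicate 2 had 1. The intron region chr6:128285502-128286257, at 14.9 kb, had 20 positive and 4 negative fragments, and the region chr6:128227458-128228030, over an exon at 73.1 kb, had 21 and 5. Both had positive fragments at all 5 stages of replicate 1 and none in replicate 2.

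Of the co-activators, Yap1 had 40 positive and 8 negative fragments, and 32 of its 42 distinct ones were nearest to Birc3. In replicate 1 the positive ones numbered 6, 6, 8, 8 and 7 from ES to HP. Because the sorts differ in depth, these are 2.16, 1.54, 0.785, 1.17 and 1.76 per 10000, lowest at HE1, where the Wilson interval of 0.398 to 1.55 overlaps that of ES, 0.992 to 4.72. The region chr9:7914534-7914912, which lies past the end of the gene and between genes, had 29 of the 40 positive fragments and 6 negative ones, all in replicate 1. In the Yap1 gene the printed fragment chr9:7959392-7959583 was in all 4 gates at HB of replicate 1 and in Low and High at HE2 of replicate 2. It was 1 of 8 distinct member fragments, of 630, that occurred in both replicates.

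Wwtr1, the TAZ gene, had most of its fragments at HE1 and HE2. In replicate 1 its positive fragments numbered 3, 0, 12, 8 and 1 from ES to HP. In replicate 2 they numbered 1, 0, 3, 0 and 0. Per 10000 the shares at HE1 and HE2 of replicate 1 were 1.18 and 1.17, but ES with 1.08 was close to them, and only HB (0) and HP (0.252) were low. Negative fragments numbered 3, 0, 9, 2 and 0 in replicate 1 and 0 in replicate 2. The region with its most positive fragments, chr3:57555664-57556116, had 9 positive and 5 negative ones, with 8 entries in Medium, 1 in High and 0 in Low. The region chr3:57544208-57544717, nearest to Gm16016 and picked after its values had been seen, had 8 positive and 7 negative ones.

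The kinase genes had few fragments. Lats1 had 4, all positive, 2 of them at HB of replicate 2, and it did not reach the minimum of 20 for a test. Its first region by rule, chr10:7673612-7673908, lies over an exon of Nup43. Lats2 had 22 positive and 7 negative fragments, and in replicate 1 the positive ones numbered 1, 2, 6, 9 and 1 from ES to HP. The region chr14:57680067-57680359, past the end of Lats2 on the Xpo4 side, held 11 of the positive and 6 of the negative ones.

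Amotl2 had 110 positive and 29 negative fragments in 8 regions. In replicate 1 the positive ones numbered 10, 8, 36, 30 and 17 from ES to HP, or 3.61, 2.05, 3.53, 4.38 and 4.29 per 10000. In replicate 2 they numbered 0, 4, 3, 1 and 1. The intron region at 4.5 kb, chr9:102721797-102722784, had 50 positive and 10 negative fragments. In replicate 1 it had 20 positive fragments at HE1, 17 at HE2 and 11 at HP, and 0 at ES and HB. These are 1.96 per 10000 at HE1 (Wilson interval 1.27 to 3.03), 2.48 at HE2 (1.55 to 3.98) and 2.77 at HP (1.55 to 4.96), beside limits of 1.08 at ES and 0.770 at HB that a count of 0 allows. The Wilson upper bounds for these zeros are 1.39 and 0.986, and the one for ES lies above the lower bound of HE1. The region was named for its number of positive fragments, most of which came from these 3 sorts, so its stage pattern is a description. In replicate 2 the order was not the same, with 2 positive fragments at HB and 0 at the other stages. Negative fragments were 8 at HE1 and 1 at HE2 in replicate 1 and 1 at HP in replicate 2, so this region was missing from ES in both classes. The neighbouring intron region at 8.6 kb, chr9:102726095-102726773, was found at every stage of replicate 1, with 6, 4, 13, 8 and 3 positive and 5, 1, 2, 0 and 3 negative fragments.

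**Figure D4:**
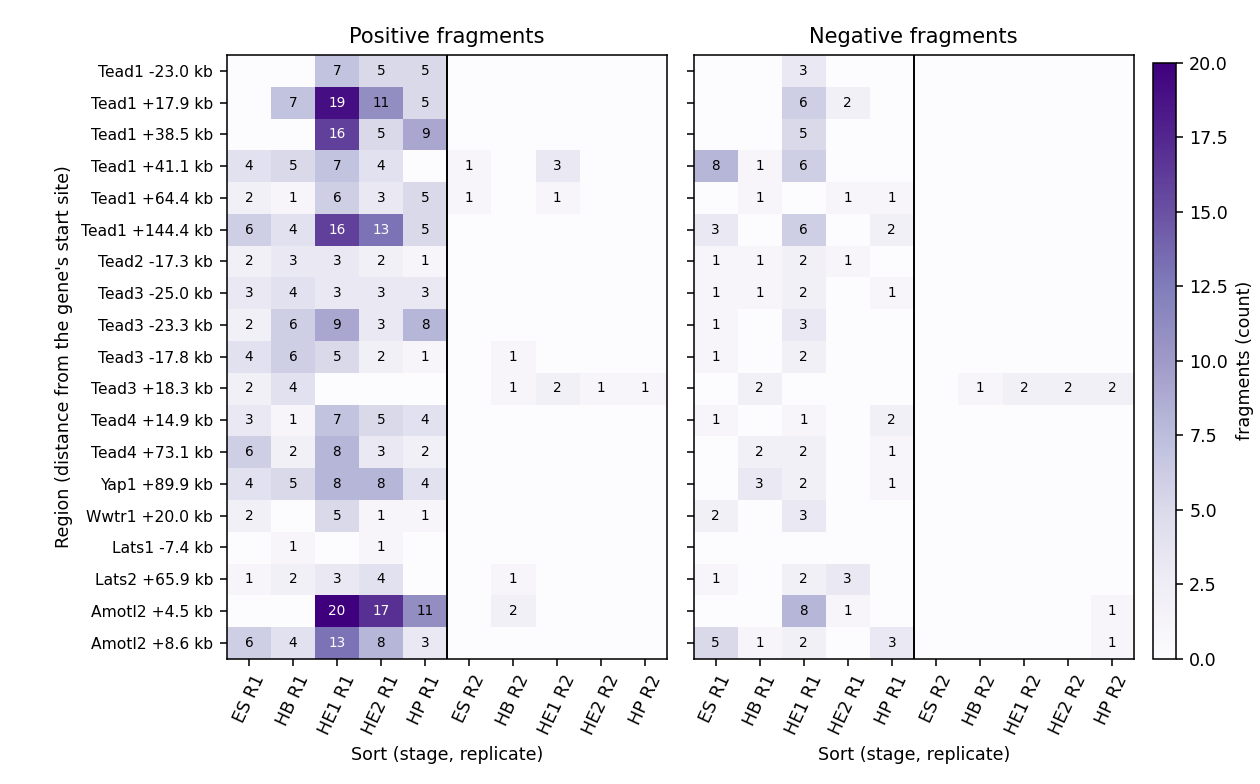
Fragments in the 19 named regions (rows, by gene and distance in kb of the region's midpoint from the gene's start site) in each of the 10 sorts (columns), positive ones on the left and negative ones on the right. Empty cells are 0. Of the rows with at least 20 fragments, Tead1 -23.0, +17.9 and +38.5 kb and Amotl2 +4.5 kb have no ES fragment, and most named rows are empty in replicate 2.

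Among the 15 member regions with at least 20 fragments, 4 had no ES fragment of either class, or 26.7%, and of all 5530 such regions 26.9% had none. Both ES and HB were empty in 2 of the 15 (13.3%), against 11.6% of all. Fragments at all 5 stages were found in 10 of the 15 (66.7%), against 63.5% of all. The stage patterns of these regions were thus near those of the data set as a whole. Replicate 2 was empty in 9 of the 15 (60.0%), against 42.6%.

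Of the 90 regions, 80 had a positive fragment and 10 had negative ones only. A positive fragment in both replicates was found in 15, or 16.7% (Wilson interval 10.4 to 25.7), and in 6.84% of all regions. Since this depends on how many fragments a region holds, it was compared by class: 15.0% of 20 member regions against 4.82% of all with 2 to 4 fragments, 35.0% of 20 against 14.6% with 5 to 19, and 33.3% of 15 against 43.8% with 20 or more. The member loci were above the whole set in the middle classes and below it in the richest class. Positive fragments at all 5 stages were seen in 11 member regions (12.2%), against 6.21% of all. This also depends on fragment number and was not compared by class. Among regions with at least 20 fragments, those with fragments of either class at all 5 stages were 66.7% of members and 63.5% of all.

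None of the tests called a member. Fragments per locus were compared with limma, with voom weights, over the 8011 loci that held at least 20 fragments, among them 8 members. For positive against negative fragments, 0 of 8011 loci passed an adjusted p of 0.05, a background of 0%, and 598 (7.46%) had an unadjusted p under 0.05, Wwtr1 among them. The median difference over all loci was -0.45 on the log2 scale, so member values are given relative to it. Each p belongs to the difference before that centring, which was 0.28 for Yap1, 0.12 for Tead3, 0.086 for Tead1 and -0.92 for Wwtr1. Most of the centred values of Tead1 and Tead3 below is thus the median itself. The median was -0.30 over loci with at least 50 fragments. It was 0.13 in limma without voom weights and -0.16 without replicate 2, so its size and sign depended on the setting. After centring, Wwtr1 lay lowest at -0.47 ± 0.44 (SE, adjusted p = 0.640 with limma). Yap1 lay highest at 0.73 ± 0.53 (adjusted p = 0.848 with limma), and Tead3 and Tead1 were at 0.56 ± 0.54 and 0.53 ± 0.48. This order was not stable: without single sorts or replicates Yap1 ran from 0.30 to 0.99, Tead3 from 0.24 to 1.36, Tead1 from 0.11 to 0.88 and Wwtr1 from -1.09 to -0.23. In replicate 1 alone Tead3 was highest, at 1.36, and Yap1 was at 0.57.

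Hemogenic endothelium (the mean of HE1 and HE2) was then set against the other stages, the step at which the study asked about TEAD factors. Among positive fragments 0 of 8011 loci passed and 247 (3.08%) had an unadjusted p under 0.05, none of them a member. With a replicate block added to the fit, 0 passed and 680 had an unadjusted p under 0.05, 1 of them a member. The median over all loci without that block was -0.07. Relative to it Wwtr1 was highest at 1.21 ± 0.59 (SE, adjusted p = 1.00 with limma), followed by Tead1 at 0.51 ± 0.64, Lats2 at 0.39 ± 0.62 and Amotl2 at 0.34 ± 0.61. Tead3 was lowest at -0.61 ± 0.74 and Yap1 was at -0.32 ± 0.70. Without single sorts or replicates Wwtr1 ran from 0.81 to 1.76, Tead1 from 0.067 to 1.06 and Lats2 from 0.0096 to 0.89. In replicate 1 alone, with the stages of a group as its repeats, the Tead3 value was -1.45 ± 0.48 (adjusted p = 0.110 with limma). The values that follow come from fits of both replicates and compare with -0.61. The Tead3 value was -2.82 for the gene body without its flanks and -2.70 for fragments with Tead3 as the nearest start site. It was -0.10 with a flank of 50 kb, and no adjusted p of these was under 0.05. With the gene body only, 2 of 5 members and 108 of 3127 loci had an unadjusted p under 0.05 (limma). With the nearest start site only, these were 1 of 4 members and 92 of 3950 loci. Tead3 was at -0.38 without HB of replicate 1 and at -0.19 without ES of replicate 1.

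Negative fragments gave the background for this step. With them 0 loci passed as well, 114 (1.42%) had an unadjusted p under 0.05, and Wwtr1 was again highest of the members at 1.03 ± 0.64 (SE, adjusted p = 1.00 with limma). The difference of the 2 stage contrasts was 0.12 ± 0.88 for Wwtr1 and 0.96 ± 0.97 for Tead1 (SE), with 0 loci past the threshold and 46 (0.574%) with an unadjusted p under 0.05. Of the 8 members none was among these. The Tead1 value was -0.11 ± 0.60 in replicate 1 and 2.31 ± 1.26 in replicate 2 (SE, with the stages of a group as its repeats). In replicate 2 its negative fragments numbered 0 at ES, HE1 and HE2, 3 at HB and 5 at HP, so that value rests on few counts.

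**Figure D5:**
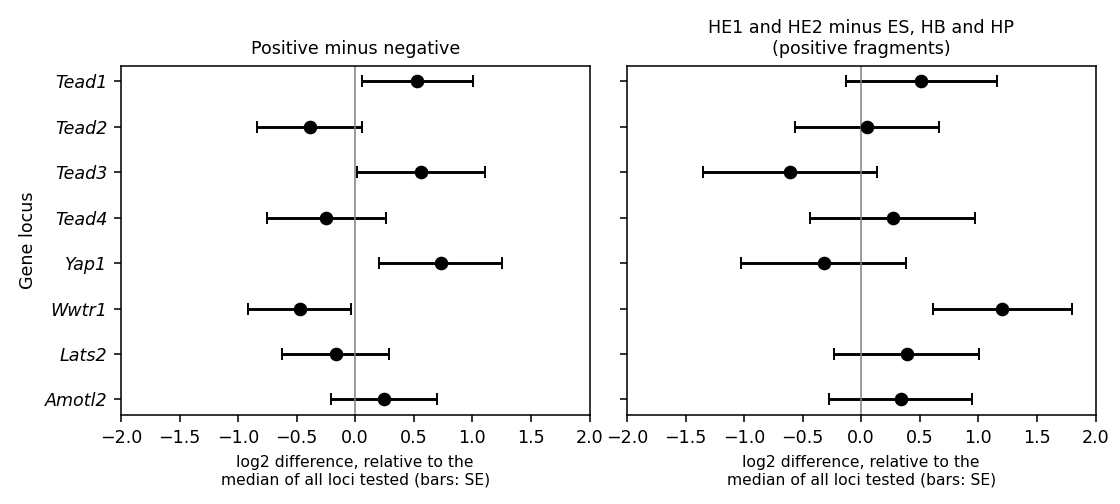
Log2 difference per locus relative to the median of all 8011 loci tested (horizontal axis), with bars of 1 standard error, for the 8 members tested by limma. Left, positive minus negative fragments. Right, HE1 and HE2 minus ES, HB and HP among positive fragments, where Wwtr1 lies at 1.21 and Tead3 at -0.61.

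Regions were tested one by one with the Cochran-Mantel-Haenszel test. Of 5530 regions with at least 20 fragments, 10 (0.181%) passed, all 10 with fewer positive fragments than the split of their sorts, and 191 (3.45%) had an unadjusted p under 0.05. Of the 15 member regions 0 passed. Their ratios of observed to matched positive fragments ran from 0.777 (Tead3 exon region) to 1.12 (Tead3-locus region chr17:28373912-28374228). The Amotl2 region at 4.5 kb had 50 positive fragments where 46.9 matched the split, a ratio of 1.07. The test takes fragments as independent, which overlapping ones and those shared by gates are not.

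Many fragments at HE1 of replicate 1 were in several gates. There 59 of the 75 negative member fragments were also positive, 58 of them in the Medium gate. Over all loci 71.3% of the 41374 negative fragments of that sort were also positive and 69.8% were in Medium, so the overlap was one of the libraries as a whole. In the other sorts of replicate 1 it was 0 to 2 member fragments, and 0% to 9.28% of all negative fragments. In replicate 2 it was 2 of 2 member fragments at HE1 and 2 of 3 at HE2, and 6.67% to 55.8% of all. Of the 630 distinct fragments 504 were in 1 library only. The part of this overlap in the HE1 values was not tested beyond leaving the shared fragments out, which called 0 of the 7 members still tested.

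TEAD letters were found in 43 of 557 distinct positive member fragments, or 7.72% (Wilson interval 5.78 to 10.2), and in 19 of 158 negative ones, or 12.0% (7.84 to 18.0). Over all fragments the shares were 6.57% and 6.49%. The 51 member fragments with these letters came from 14 of the 90 regions, and most from Tead1, where 40 of 242 (16.5%) had them. The Tead1 regions at 41.1 kb and 23.0 kb upstream, and those at chr7:112660393-112660767 and chr7:112663185-112663652, picked after seeing the counts, held 11, 9, 7 and 5 of them. At Wwtr1 4 of 33 fragments had the letters, at Amotl2 4 of 112 and at Lats2 2 of 24. None of 84 at Tead3, 71 at Tead4 and 42 at Yap1 did. This allows up to 3.57%, 4.23% and 7.14% only if fragments are taken as independent, and the true limits are wider. At Yap1, 31 of the 42 lay in the region chr9:7914534-7914912. The region chr17:28375485-28376177, which crosses the end of the Tead3 locus, has 1 match to the TEAD letters, but no counted Tead3 fragment held it. Fragments of a region share their sequence, so these shares rest on few sites.

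In windows of 300 bases at the midpoint of each region, which differ from the printed windows around the most covered base, TEAD letters were in 15 of the 90 member regions (16.7%) and in 9.71% of 75043 regions on whole chromosomes. Among regions with at least 20 fragments the order turned, with 1 of 15 (6.67%) against 10.7%. In that class AP-1 letters were in 4 of 15 (26.7%) against 14.5%, CAGCTG in 1 of 15 (6.67%) against 25.8% and TGGGAA in 8 of 15 (53.3%) against 28.3%. Over all sizes AP-1 letters were in 11 of 90 (12.2%) against 9.77%, and both kinds together in 1 of 90 (1.11%) against 0.981%. The pair of letters in the Tead1 region at 41.1 kb lies outside its midpoint window. RUNX, GATA and PU.1 letters were in 13.3%, 5.56% and 2.22% of the member windows, against 12.9%, 5.85% and 3.59%. SOX (ACAAAGG or ACAATGG) letters were in 8.89% against 12.4%, CAGCTG in 20.0% against 19.7% and TGGGAA in 33.3% against 28.3%. Per fragment, AP-1 letters were in 13.3% of positive and 22.2% of negative member fragments, against 8.49% and 8.63% of all. With 1 vote per region these were 8.90% and 13.3%, against 6.96% and 7.86%. GC content was 54.7 ± 6.77% (SD over 557 positive member fragments) and 54.5 ± 7.93% over all 301890.

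The rest of the pathway was described from a list of 30 further genes, among them the kinases Stk3 and Stk4, their adaptors Sav1 and Mob1a, and the upstream regulator Nf2. Of these, 18 had enough fragments for the test and 0 passed in either direction in any of the 4 limma contrasts. Nf2 had 153 positive and 31 negative fragments, Vgll4, which competes with YAP1 for TEAD, 138 and 40, and Stk4 only 14 and 3. The median of the list for positive against negative fragments was 0.24 relative to all loci, with 12 above and 6 below. For hemogenic endothelium among positive fragments it was 0.14.

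Of 22 genes known as targets of YAP1 and TEAD, which include Lats2 and Amotl2, 17 were tested and 0 passed. Ccn1, a matrix protein gene often used to read YAP1 activity, had 84 positive and 23 negative fragments, Ankrd1 41 and 17, and Ccn2 10 and 2, too few for the test. The median was -0.15 for positive against negative fragments and 0.01 for hemogenic endothelium, relative to all loci. In the first contrast 3 of the 17 had an unadjusted p under 0.05, all of them lower: Ankrd1, Crim1 and Tgfb2 (adjusted p = 0.640 each with limma). In the list of 30 further genes this was 1 of 18, Frmd6, also lower. Over all loci it was 7.46%, and 588 of those 598 loci were lower, so that direction was that of nearly all such loci.

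The loci whose positive fragments followed Tead1 most closely over the 10 sorts, with each replicate's mean subtracted, were Rgl1 (Pearson r = 0.938) and the overlapping Zfp119b and Ebi3 (r = 0.893 for both, on the same fragments), of 7304 loci on other chromosomes. The 10 points share libraries and depth, and the values are a description.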

How the data were processed

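The authors deposited 1 list of unique fragments per library, as coordinates in bp with no count or score. Per the labels and methods, reads were trimmed with Trim Galore, aligned to mm10 with Bowtie2, filtered with SAMtools and bedtools, and annotated with HOMER (versions not given in the sources used here), with filters against a background library and for open chromatin. Which of these filters the deposited lists had passed is not stated. A fragment counts once per library however many reads it had, and PCR without molecular identifiers can split 1 molecule into several, so intervals and limits (Wilson, 95%, and 3 counts) cover counting error only.

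Stage, gate and replicate came from the library titles. Fragments were assigned by centre to 21883 RefSeq protein-coding loci (gene body and 25 kb on each side, GRCm38). Loci with at least 20 fragments were tested with limma 3.58.1 (voom, R 4.3.3) on the 10 sorts and 2 classes. The 2 classes of a sort entered that fit as separate columns with no pairing term, though they share cultures and fragments. Regions of at least 20 fragments were tested by Cochran-Mantel-Haenszel, stratified by sort (numpy 2.4.6, pandas 2.3.3). Both used Benjamini-Hochberg adjustment over all features. Both were also run on simulated counts, drawn independently and with no fragment shared between classes. Such draws differ from these lists, so they do not show how often the tests would miss a difference here. Named were the 9 members, the region with most positive fragments of each locus, regions with at least 20 fragments, regions positive at 3 or more stages in both replicates, and the 3 loci most like the member with most positive fragments. The members, lists and tests were chosen with earlier results of these data known. Deviations of same-numbered sorts from their stage means correlated (r = 0.376 to 0.535 over 20 pairs). With 2 replicates per stage the deviations of replicate 2 mirror those of replicate 1, so each r is counted under both numbers. The replicates also differ in depth, so these r cannot tell whether the numbers pair the sorts. The replicate block was run as an alternative. That the replicates are separate cultures is not stated, and p-values measure only the spread between these sorts, which may be technical. The other alternatives were the gene body alone, a flank of 50 kb, fragments collapsed within 5 bp, fragments of both classes left out, other minimums, the nearest start site only, limma without voom and leaving out replicates and sorts.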

Additional observations from a re-analysis of the deposited data

How the results depend on the processing

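The number of members called was 0 in each of the 4 limma contrasts and the number of member regions called was 0 under every alternative that tested any (without replicate 1, 14 of 124 regions were called and no member region was tested), with lowest adjusted p among the members of 0.336 for positive against negative fragments and 0.110 for hemogenic endothelium (HE) among positive ones. With the replicate block, 0 of 8011 loci were called in each contrast. With it, 1096 loci had an unadjusted p under 0.05 (limma) for positive against negative fragments and 680 for HE among positive ones, each with 1 member among them. Fits of 1 replicate alone took HE1 and HE2 as repeats of 1 group and the other stages as repeats of another. Their error was thus the spread between stages. Leaving out sorts or replicates, the HE contrast of positive fragments called 0 to 64 loci of all tested, the 64 without replicate 2, and the region test 5 to 17 regions, with 5 without replicate 2 and without HE1 of replicate 2, 6 without HB of replicate 2 and 17 without HP of replicate 2. The region test called 23 with the replicates of a stage pooled, 0 with fragments collapsed within 5 bp (99 with an unadjusted p under 0.05) and 17 with at least 10 fragments, and the cause was not tested. The share of fragments at the member loci, 0.149% of positive and 0.142% of negative ones over 10 sorts, was 0.260% and 0.241% with a flank of 50 kb, which takes in more sequence, and 0.0827% and 0.0801% with the nearest start site only, which takes in less. It ran from 0.0903% to 0.207% and from 0.100% to 0.183% by leaving out a replicate. With 1 vote per region, TEAD letters were at 10.5% in positive and 13.1% in negative member fragments, against 7.04% and 6.48% of all. Values relative to the median locus changed sign for Tead3 in positive against negative fragments with the gene body only (-0.36), for Tead4 with shared fragments left out (0.085), for Lats2 with a flank of 50 kb (0.038) and for Tead2 in the HE contrast with a flank of 50 kb (-0.22). Without single sorts or replicates, the first contrast ran from -0.46 to 0.056 for Tead4 and from -0.0055 to 0.48 for Amotl2, and the HE contrast from -0.23 to 0.19 for Tead2, from -0.24 to 0.74 for Tead4, from -0.86 to 0.081 for Yap1 and from -0.043 to 0.81 for Amotl2. None of these was called. Without replicate 1 only Tead1 kept enough fragments to be tested, so replicate 2 alone gives no check of the other 8 loci.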
